A study of Homo sapiens with 96 samples.

Results

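The genes described here are 10 factors of H3K9me3 heterochromatin, chosen by name: TRIM28, SETDB1, ATF7IP, CBX1, CBX3, CBX5, ZFP57, ZNF445, MPHOSPH8 and MORC2. All 10 had a row among the 58521 genes of the deposited tables. They were read in 84 of 96 libraries, those with at least 100000 gene reads, 2000 genes with a read and 1% of gene reads on mitochondrially encoded (MT-) genes. Each library was the RNA of 1 well of a plate with 1 human cell per well, sequenced by SMART-seq2, which copies poly(A) RNA over its full length. The cells were of HUES64, an embryonic stem cell line, with an inducible knockout of DNMT1, at day 0, and the series was set up to evaluate reading DNA methylation and RNA from the same cell. The labels disagree on doxycycline: the description has it as given, the induction field as not given. Every library carries these same labels, so there was 1 group of 1 line, with no second culture, no control arm and no test.

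In this pathway KRAB zinc finger proteins bind DNA at transposable elements and imprinted regions and recruit TRIM28, a scaffold also called KAP1. TRIM28 brings SETDB1, the methyltransferase that writes H3K9me3, and ATF7IP is the partner that keeps SETDB1 in the nucleus and stable. HP1 proteins read the mark and compact the chromatin, and the HUSH complex spreads silencing over transposons and integrated genes. Embryonic stem cells are known to depend on this machinery to keep endogenous retroviruses silent.

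The 84 libraries held 118549 to 1877837 gene reads (median 768161), so that 3 reads of a gene stood at 1.60 to 25.3 CPM (median 3.91), where CPM is the count of a gene scaled to 1000000 gene reads. Markers of pluripotent stem cells were present: 8 of 8 had a mean of at least 10 CPM, and their summed level ran from 50.99 to 5238 CPM with a median of 3221. Of markers of other lineages, 3 of 4 neural, 0 of 4 endoderm, 3 of 4 streak and mesoderm, 1 of 4 trophoblast and 1 of 5 fibroblast genes reached that mean. DNMT1, the gene to be knocked out, had 0 to 213 CPM (median 5.41) and a read in 75 of 84 libraries. In 19 of the 84 libraries MT-CO2 had more reads than MT-CO1, and 9 other libraries with over 10000 gene reads but under 1% MT- reads, which held few reads of POU5F1 and TDGF1, served as a measure of background.

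Some of the genes start beside an oppositely oriented neighbour, and the promoter windows are shown because the reads of CBX3 and MORC2 are read against their neighbours further on. CBX3 shares its upstream region with HNRNPA2B1, with 697 bases between the RefSeq starts, and MORC2 lies 491 bases from the start of TUG1. The GENCODE spans of CBX5 and HNRNPA1 are 60 bases apart. ZFP57, the member with the fewest reads, is shown beside them. Each window is the 250 bases before the RefSeq start (GRCh38.p14), written from 5′ to 3′ on the gene's own strand, with CpG dinucleotides in capitals.
CBX3, chr7:26201193-26201442, plus strand: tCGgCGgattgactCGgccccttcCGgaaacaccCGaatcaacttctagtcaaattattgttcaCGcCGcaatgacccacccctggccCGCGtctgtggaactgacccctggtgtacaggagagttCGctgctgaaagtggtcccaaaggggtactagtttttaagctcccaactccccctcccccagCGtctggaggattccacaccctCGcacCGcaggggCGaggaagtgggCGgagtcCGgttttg
CBX5, chr12:54280123-54280372, minus strand: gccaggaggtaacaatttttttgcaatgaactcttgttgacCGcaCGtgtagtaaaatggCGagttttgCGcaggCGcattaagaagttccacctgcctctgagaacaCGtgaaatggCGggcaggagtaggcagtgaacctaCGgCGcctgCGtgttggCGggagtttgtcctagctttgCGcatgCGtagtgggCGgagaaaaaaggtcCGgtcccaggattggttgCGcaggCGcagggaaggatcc
MORC2, chr22:30968775-30969024, minus strand: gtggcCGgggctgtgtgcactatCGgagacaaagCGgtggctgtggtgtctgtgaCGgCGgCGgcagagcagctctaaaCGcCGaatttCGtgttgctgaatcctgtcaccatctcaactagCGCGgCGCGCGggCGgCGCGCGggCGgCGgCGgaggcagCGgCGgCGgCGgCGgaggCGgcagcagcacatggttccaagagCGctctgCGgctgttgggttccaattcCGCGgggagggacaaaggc
ZFP57, chr6:29681153-29681402, minus strand: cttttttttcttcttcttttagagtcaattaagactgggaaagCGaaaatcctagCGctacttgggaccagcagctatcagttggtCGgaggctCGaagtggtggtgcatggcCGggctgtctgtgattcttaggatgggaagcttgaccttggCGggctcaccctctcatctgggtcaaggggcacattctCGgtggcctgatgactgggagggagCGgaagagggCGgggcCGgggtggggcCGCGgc
The MORC2 window held 31 CpG, a number that 10.9% of 35116 RefSeq promoter windows reached. CBX5 held 17, CBX3 held 16 and ZFP57 held 12, against a median of 11 over all windows. Of the other members with an entry, CBX1 held 30, MPHOSPH8 held 26, ZNF445 held 23, ATF7IP held 14 and SETDB1 held 9. RefSeq windows were found for 9 of the 10 members, TRIM28 being the exception. On either strand, TATAAA was in none of the 9 windows, while 10.7% of all windows held it. The letters GGGCGG were in 7 of the 9 windows and in 42.6% of all. CCAAT was in 4 of the 9 and in 32.01% of all, and overlapping matches of different motifs were all kept. These are letter matches and were read no further.

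Reads of most of the machinery were found in these stem cells. Mean levels per kilobase were highest for the HP1 readers and low for the writer SETDB1. A read was found in at least 50% of libraries for 8 of the 10 members, against 21.2% of all genes. That share is no guide by itself, since background libraries held reads of the members too, as set out below. A mean of at least 10 CPM was reached by 8 of 10, against 15.4% of all genes. Of the members with that mean, 6 were at least 2-fold above the pool of libraries with under 1% MT- reads. Over all genes with that mean the share was 65.1%. ZNF445 and MORC2 were not 2-fold above it (ratios 1.34 and 1.71). Per kilobase of exon the order of mean levels was CBX3, CBX1, CBX5, TRIM28, ATF7IP, MPHOSPH8, MORC2, SETDB1, ZNF445 and ZFP57. The order was the same with the longest protein-coding transcript as the length. It depends on the column of counts. By the sum of the 2 strand columns, described below, MORC2 averaged 46.1 CPM and MPHOSPH8 27.3 CPM. Without regard to strand they averaged 10.2 and 30.2 CPM. The lengths include exon bases shared with genes on the opposite strand (25.8% for MORC2, 13.4% for SETDB1), where the count without regard to strand assigns no reads. In mean CPM per kilobase, each neighbour in that order differed from the next by less than the SD of the difference over cells. That SD is a spread between cells and does not say how sure a rank is. Within cells some neighbours were clearly ordered, with CBX3 above CBX1 in 67 cells and below it in 16. Others were not: MORC2 was above SETDB1 in 31 cells and below it in 32. SETDB1 was above ZNF445 in 32 cells and below it in 43.

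**Figure D1:**
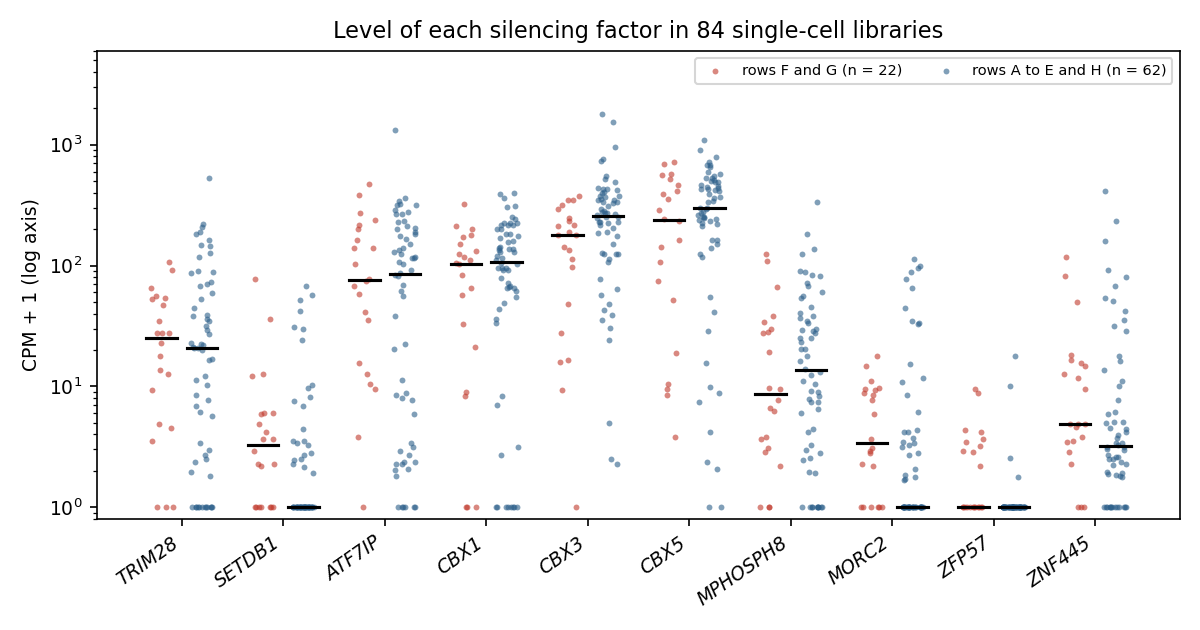
Level of each member (CPM + 1, log axis) in 84 libraries, grouped by role on the horizontal axis. Points are libraries, with rows F and G of the plate (22) left of the other rows (62). The HP1 genes CBX3 and CBX5 sit mostly above 100 CPM, and most points of SETDB1 and ZFP57 lie near 0.

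The 3 HP1 genes encode the proteins that bind H3K9me3: HP1-beta (CBX1), HP1-gamma (CBX3) and HP1-alpha (CBX5). CBX3 (7:26201162-26213356, plus strand, GRCh38 and GENCODE 29) had a lowest value of 0, a median of 229 and a highest of 1785 CPM, with a mean of 272 ± 282 CPM (SD over cells, n = 84). CBX5 (12:54230940-54280133, minus strand) ran over 0, 284 and 1099.8 CPM (lowest, median, highest), with a mean of 315 ± 242 CPM. CBX1 (17:48070052-48101521, minus strand) ran over 0, 104 and 397 CPM, with a mean of 117 ± 96.8 CPM. Reads of CBX3 and CBX5 were found in nearly every cell, and those of CBX1 in fewer. CBX3 had a read in 83 of 84 libraries (98.8%, exact 95% interval 93.5 to 99.97), CBX5 in 82 (97.6%, 91.7 to 99.7) and CBX1 in 73 (86.9%, 77.8 to 93.3). All intervals here cover counting error only, since the reads carry no molecular identifiers. All 3 were read in 72 cells, and no cell lacked all of them.

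Length turned the order round between CBX3 and CBX5. CBX5 has 12.2 kb of exon and CBX3 has 3.69 kb, so CBX3 averaged 73.8 ± 76.5 CPM per kilobase, CBX1 37.9 ± 31.3 and CBX5 25.8 ± 19.8. CBX3 was the highest of the 3 per kilobase in 58 cells, CBX1 in 14 and CBX5 in 12. In mean CPM per kilobase CBX3 exceeded CBX1 by 35.9 (SD of the difference 77.9) and was the higher in 67 cells, the lower in 16. CBX1 exceeded CBX5 by 12.1 (SD 33.8), being higher in 45 cells and lower in 38. Of the summed mean per kilobase, CBX3 made 53.7%, CBX1 27.6% and CBX5 18.8%. Across cells the CBX3 share ran from 0 to 100%, with a median of 49.98%.

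**Figure D2:**
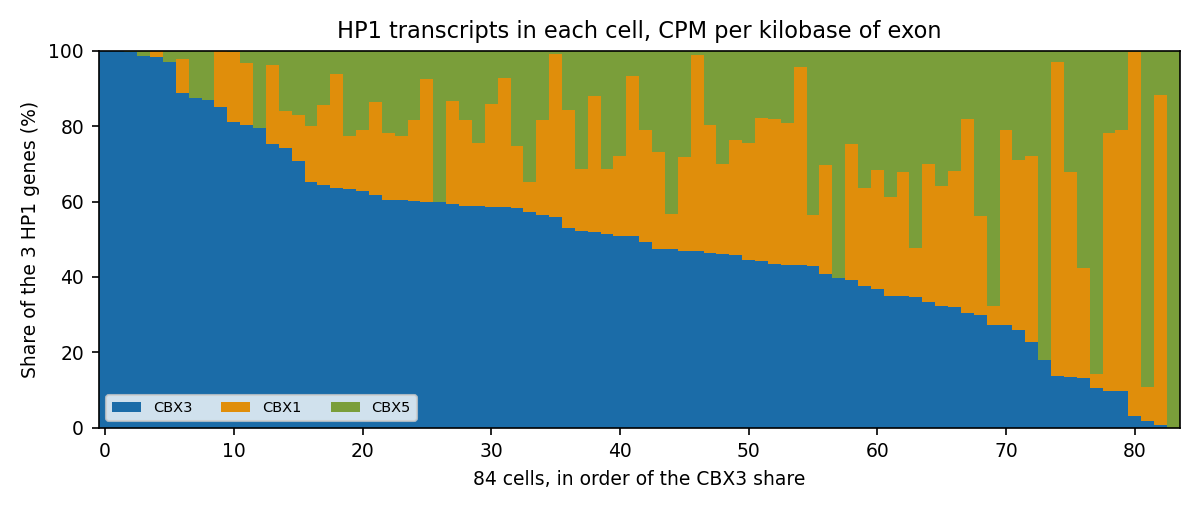
Share of CBX1, CBX3 and CBX5 in their summed level (CPM per kilobase of exon, %) in each of 84 cells, ordered by the CBX3 share. CBX3 is the largest share in 58 cells, and its share runs from 0 to 100%.

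The extremes of CBX3 came from libraries of low complexity. Wells C12 and E4 held the highest CBX3 values, 1785 and 1539 CPM, and each had 1 read of CBX5. At 100000 gene reads C12 showed 3845 genes and E4 4022, against a median of 7619.5 over the libraries, and in both MT-CO2 outnumbered MT-CO1. Without the 19 libraries of that kind, CBX3 averaged 230.3 CPM and CBX5 377 CPM. The part of library quality in the spread of CBX3 was not tested. Rows named as CBX3 pseudogenes held 223 reads in 9 rows, 1.10% of the reads of CBX3. Those of CBX1 held 28 reads (0.323%) and the single CBX5 copy held 3 (0.0127%). Reads that map to a gene and a copy alike stand in the multimapping summary line, a median of 31.3% of reads, so these numbers do not bound what the copies took.

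TRIM28, the corepressor that links zinc finger proteins to chromatin modifiers, lies at 19:58544091-58550722 on the plus strand. It ran over 0, 19.8 and 530.3 CPM, with a mean of 45.04 ± 74.8 CPM (13.4 ± 22.3 CPM per kilobase). The highest value, with 499 reads, was again well C12, and the next was 219.7 CPM in well D3. A read was found in 69 of 84 libraries (82.1%, 72.3 to 89.6), and 52 reached 10 CPM. The level of TRIM28 was thus moderate and uneven, with C12 holding 14.02% of its summed CPM.

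SETDB1, which deposits H3K9me3 on the regions TRIM28 marks out, was among the lowest members. At 1:150926263-150964744 (plus strand), it ran over 0, 0 and 76.1 CPM, with a mean of 6.24 ± 14.99 CPM. Only 39 of 84 libraries had a read of it (46.4%, 35.5 to 57.6), and 11 reached 10 CPM. The highest values were 76.1 CPM in well G6, from 41 reads, and 67.1 CPM in well H5. At this depth a cell without a read cannot be called a cell without the transcript. After each library was thinned to 100000 gene reads, 19 libraries kept a read of SETDB1 and 58 one of TRIM28. Both genes were read in 32 cells.

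ATF7IP, the SETDB1 partner, had the higher mean level of the pair. It lies at 12:14365632-14502935 on the plus strand and ran over 0, 81.2 and 1311 CPM, with a mean of 124 ± 174 CPM. Well E11, with 670 reads, was the highest, the next was 470.1 CPM in well G4, and the mean without E11 was 110.2 CPM. A read was found in 77 libraries (91.7%, 83.6 to 96.6). Per kilobase ATF7IP averaged 10.1 ± 14.1 CPM and SETDB1 1.24 ± 2.97. SETDB1 and ATF7IP were read together in 36 of the 39 cells with SETDB1. As ATF7IP had a read in 91.7% of all libraries, this count says little about the pair.

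**Figure D3:**
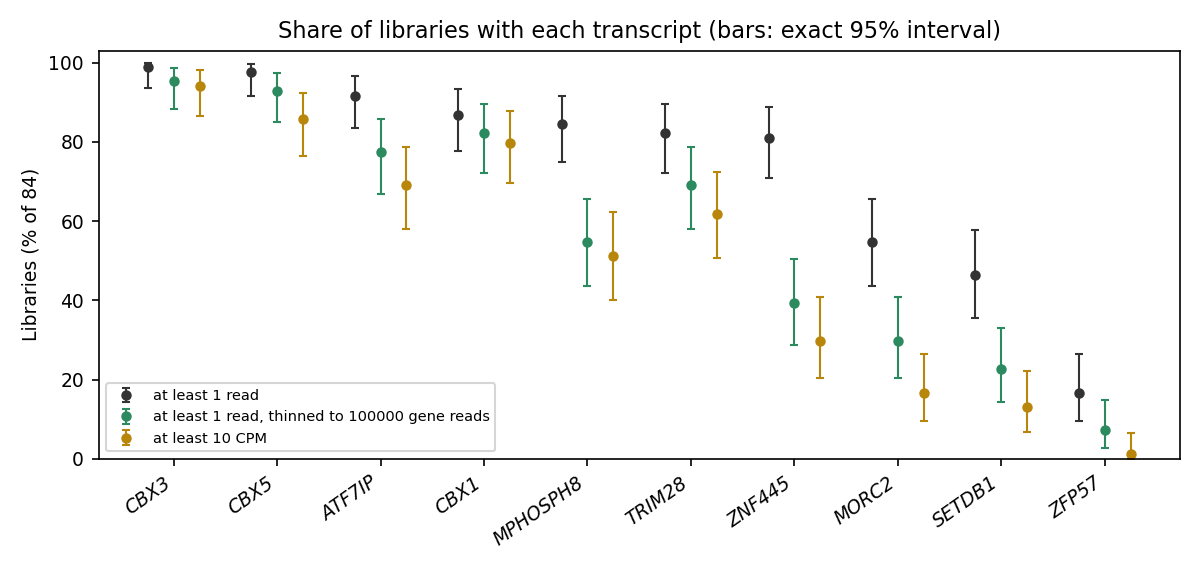
Share of 84 libraries (%) with each transcript, counted as any read, as any read after thinning to 100000 gene reads, and as at least 10 CPM. Bars are exact 95% intervals for the counting of libraries. CBX3 and CBX5 stay above 85% in each way of counting, and ZFP57 is below 20% in each.

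The 2 KRAB zinc finger genes that guard genomic imprints differed in how often they were seen. ZFP57 (6:29672392-29681110, minus strand) had 45 reads in all, 23 of them in well B12, with 0, 0 and 16.7 CPM as lowest, median and highest and a mean of 0.752 ± 2.45 CPM. It had a read in 14 libraries (16.7%, 9.42 to 26.4) and at least 3 reads in 2. ZNF445 (3:44431720-44477670, minus strand) ran over 0, 2.76 and 411 CPM, with a mean of 21.2 ± 56.4 CPM. ZNF445 had a read in 68 libraries (80.95%, 70.9 to 88.7), but 25 reached 10 CPM. At least 3 reads of it were found in 35 libraries, along 18.6 kb of exon, so many of its detections were 1 or 2 reads. Well A3 held 489 of its reads and 23.1% of its summed CPM, and at 100000 gene reads A3 showed 3585 genes, the second fewest. Per kilobase ZNF445 averaged 1.14 ± 3.03 CPM and ZFP57 0.350 ± 1.14, a difference of 0.79 with an SD of 3.27 over cells. ZNF445 was the higher in 59 cells and ZFP57 in 12.

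MPHOSPH8 is the HUSH subunit whose chromodomain binds H3K9me3, and MORC2 is the ATPase that HUSH recruits to compact chromatin. MPHOSPH8 (13:19633681-19673459, plus strand) ran over 0, 10.7 and 334 CPM, with a mean of 30.2 ± 49.3 CPM, and had a read in 71 libraries (84.5%, 74.99 to 91.5). MORC2 (22:30925130-30968298, minus strand) ran over 0, 0.954 and 113 CPM, with a mean of 10.2 ± 23.8 CPM, and had a read in 46 (54.8%, 43.5 to 65.7). Per kilobase MPHOSPH8 averaged 6.69 ± 10.9 CPM and MORC2 1.68 ± 3.92, and MPHOSPH8 was the higher in 61 cells against 18. Both were read in 38 cells. MORC2 and SETDB1, neighbours in the order per kilobase, differed by 0.44 CPM per kilobase (SD 4.68).

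Most genes around these members reached a mean of 10 CPM (levels not scaled for length), as did 15.4% of all genes. Not all of those around the members stood above the pool of libraries with under 1% MT- reads. Of 24 H3K9 and HP1 partners, 20 had a mean of at least 10 CPM, among them the deacetylase HDAC2 (582 ± 427 CPM) and SUMO2 (346 ± 270 CPM), a small protein modifier. Of the other H3K9 methyltransferases, SUV39H2 averaged 42.8 CPM, EHMT1 17.6, EHMT2 9.38, SETDB2 8.46 and SUV39H1 2.83. In the pool SUV39H2 had 20.8 CPM, EHMT1 23.8, EHMT2 1.98, SETDB2 45.6 and SUV39H1 1.98, so EHMT1 and SETDB2 were not above it. Of 7 HUSH and MORC genes, 5 reached 10 CPM: PPHLN1, a HUSH subunit, averaged 139 ± 144 CPM, ATF7IP2 99.4 ± 111 and MORC3 73.8 ± 195. ATF7IP2 had 97.1 CPM in the pool, about its level in the libraries used, while PPHLN1 had 31.7 and MORC3 4.95. TASOR, the HUSH scaffold, listed as FAM208A, averaged 37.7 CPM and its paralog TASOR2, listed as FAM208B, 38.8 CPM. Of 12 further KRAB zinc finger genes, 6 reached 10 CPM, with ZNF808 at 36.6 ± 97.3, ZNF91, a repressor of SVA elements, at 35.5 ± 86.4, and ZNF765 at 26.2 ± 66.5 CPM. At least 10 CPM and at least 2 times the pool were reached by 14 of 24 genes in the first list, 3 of 7 in the second, 5 of 12 in the third and 6 of 10 members. Among genes with at least 10 CPM these were 14 of 20, 3 of 5, 5 of 6 and 6 of 8. Over all genes with that mean the share was 65.1%, which is near that of the first 2 lists. The median of the mean levels was 35.1 CPM in the first list, 38.8 in the second and 9.496 in the third, against 37.6 for the members.

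Libraries with under 1% MT- reads showed how far each member stood above background. Pooled, 9 such libraries held 1009549 gene reads, from 87891 to 155710 each with a median of 108651. CBX3 averaged 272 CPM in the libraries used and had 10.9 CPM in the pool, a ratio of 24.97. CBX5 averaged 315 CPM in the libraries used and had 12.9 CPM in the pool, a ratio of 24.5. The pool had 1 read of CBX1, or 0.991 CPM with an exact interval of 0.0251 to 5.52, and 2 reads of MPHOSPH8, 1.98 CPM with an interval of 0.240 to 7.16. The HP1 genes thus stood well above the pool, and the interval of MPHOSPH8 leaves its ratio wide. The ratio was 6.61 for ATF7IP and 3.79 for TRIM28. It was 1.71 for MORC2, with 6 reads in the pool, 1.57 for SETDB1, with 4, and 1.34 for ZNF445, with 16. ZFP57 stood at 0.752 CPM in the libraries used and at 0.991 CPM (0.0251 to 5.52) in the pool, from 1 read. Of the 8 members with a mean of at least 10 CPM, 6 were at least 2-fold higher in the libraries used, against 65.1% of all genes, and none was 2-fold lower, against 16.2%. The share of libraries with any read was no guide by itself: in the 9 background libraries ZNF445 had a read in 8, ATF7IP in 8, TRIM28 in 7, CBX5 in 7, CBX3 in 5, SETDB1 in 4, MORC2 in 4, MPHOSPH8 in 2, CBX1 in 1 and ZFP57 in 1. None of these exceeded 6 reads. A single read of a member was therefore not told apart from background.

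Counting by strand changed MORC2 and SETDB1 and left the other 8 members within 1.02 times their reads. Each table gives every gene without regard to strand and, in 2 further columns, for each strand, and a read over exons of genes on opposite strands is assigned in the strand columns but not in the first. Of 10893 genes with at least 500 stranded reads, 13.7% had a stranded sum at least 1.5 times the unstranded count, and 2 of the 10 members did. MORC2 had 3100 reads in the stranded sum and 764 without regard to strand, a ratio of 4.06 that 7.30% of those genes reached. Its stranded sum was the higher in 84 of 84 libraries, and the stranded level ran over 8.94, 31.9 and 232 CPM with a mean of 46.1 ± 39.9 CPM. SETDB1 had 1347 stranded and 540 unstranded reads, a ratio of 2.49 that 9.32% of genes reached. Well E4 alone gave 547 of the SETDB1 stranded reads and 30 of the unstranded ones. Without E4 the counts were 800 and 510 (ratio 1.57), and the stranded mean was 9.88 CPM, against 17.7 CPM with it. The stranded count of SETDB1 was the higher in 17 libraries and equal in 67.

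**Figure D4:**
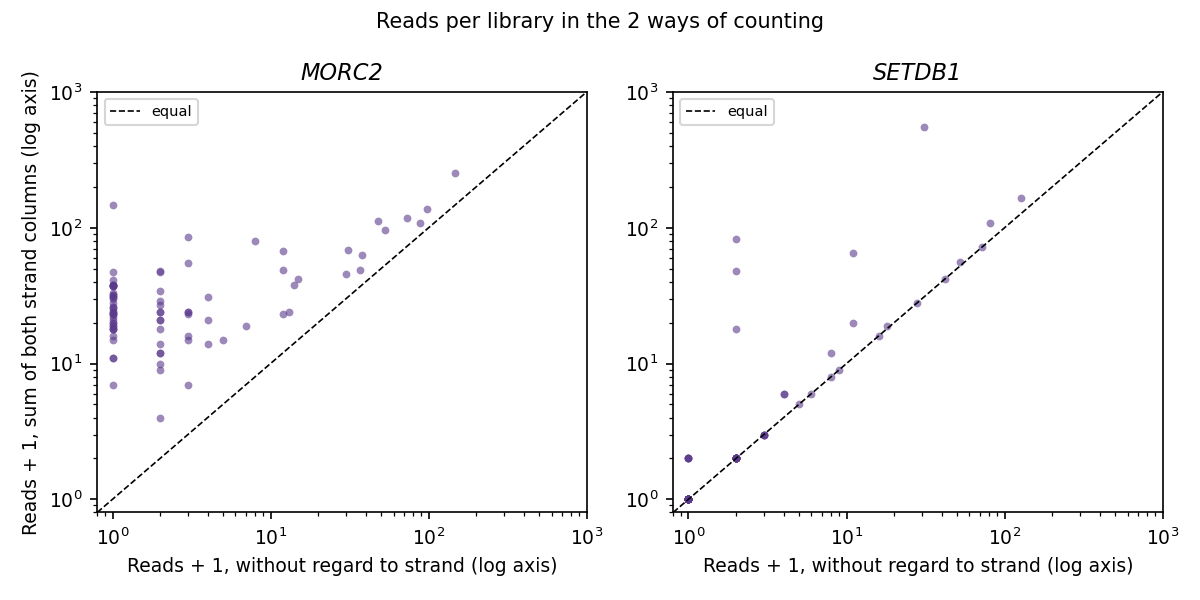
Reads + 1 per library for MORC2 and SETDB1, with the sum of both strand columns on the vertical axis and the count without regard to strand on the horizontal axis (log axes, 84 libraries, dashed line for equal counts). MORC2 lies above the line in every library, and SETDB1 lies on it in 67.

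Both genes overlap an exon on the opposite strand. In GENCODE 29, MORC2 shares 1616 exon bases (25.8% of its own) with MORC2-AS1, a transcript antisense to its 3′ part, and SETDB1 shares 948 bases (13.4%) with CERS2, a ceramide synthase gene. MORC2-AS1 had 2358 stranded and 65 unstranded reads, and CERS2 had 4755 stranded and 1426 unstranded. The reads that strand counting added were nearly equal on both sides of the MORC2 overlap, 2336 for MORC2 and 2293 for MORC2-AS1. A read of the overlap goes to 1 gene in 1 strand column and to the other gene in the other column. The 2 gains are thus largely the same reads counted for both genes, and their near equality follows from the counting. MORC2 gained 2 to 145 reads per library (median 22), and the median gain was 30 in the 9 libraries with under 1% MT- reads. By the stranded sum MORC2 averaged 46.1 CPM in the libraries used and had 256 CPM in the pool of those 9, so the added reads were not specific to libraries with reads of the cell. Without regard to strand it averaged 10.2 CPM in the libraries used and had 5.94 CPM in the pool.

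The added reads of MORC2 were also uneven between the strands. Of the 3100 stranded reads 78.6% (exact interval 77.2 to 80.1) were in the first strand column, where the median over genes was 49.4% and 98 in 100 genes lay between 39.3 and 58.7%. Only 0.129% of the genes had a higher share. MORC2-AS1, on the opposite strand, had 13.3% in that column, a mirror of the MORC2 share that the counting of the same reads for both genes produces. SETDB1 had 50.2% there and MPHOSPH8 44.6%. SMART-seq2 does not mark the strand of the RNA, so a share near 50% is what most genes show, and the reads of the overlap cannot be assigned to MORC2 or to its antisense transcript. The origin of the strand imbalance was not tested. CBX3 also overlaps HNRNPA2B1 over 368 exon bases (7.93%), but its stranded sum was 20435 reads and its unstranded count 20312.

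Rows F and G of the plate stood apart in depth, with a median of 498244 gene reads against 889048 in the other rows, and in genes detected at 100000 reads, 8962 against 7346. They differed in plate position and carry no label of their own. CBX3 ran over 0, 176 and 372 CPM in rows F and G and over 1.28, 256 and 1785 CPM in the other rows. Its mean was 169 ± 120 CPM in rows F and G (n = 22) and 309 ± 313 CPM in the other rows (n = 62), a log2 ratio of -0.87, and the ranges overlapped. MORC2 averaged 4.72 ± 4.91 CPM in rows F and G and 12.1 ± 27.3 CPM in the other rows (log2 -1.36), while its median was 2.37 CPM in rows F and G and 0 in the other rows. Mean and median of MORC2 thus pointed opposite ways, and its highest cell had 16.9 CPM in rows F and G and 113 CPM in the other rows. Of the 8 members with a mean of at least 10 CPM, 1 was 2-fold lower in rows F and G, against 13.1% of all genes, and none was 2-fold higher, against 12.2%. That member was MORC2, whose mean over all libraries, 10.2 CPM, passed the limit only through the other rows. Without its highest library the mean was 8.95 CPM, so the call rests in part on the filter. With TMM factors, 3 members were 2-fold lower (MORC2 -1.49, CBX3 -1.31 and TRIM28 -1.25, against 20.9% of genes), and the median of all genes shifted by -0.23. With medians none of the 7 members with a median above 0 in both groups was 2-fold apart, MORC2 giving no ratio, and with the stranded sum none of the 8 was. TRIM28 averaged 30.1 ± 29.9 CPM in rows F and G and 50.3 ± 84.9 CPM in the other rows, with medians of 24.2 and 19.6 CPM.

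Most members, and not only those of low level, had reads more often in rows F and G, although these rows were shallower. More genes in general were detected in these rows at 100000 gene reads (8962 against 7346). No share over all genes is given for this comparison, so it is not read as a trait of the members. Some of the differences were small, as for MPHOSPH8 (19 of 22 and 52 of 62) and CBX5 (22 of 22 and 60 of 62). CBX1 (19 of 22 and 54 of 62) and CBX3 (21 of 22 and 62 of 62) went the other way. ZFP57 had a read in 10 of 22 libraries of rows F and G and in 4 of 62 of the other rows. SETDB1 had one in 15 of 22 and in 24 of 62, and MORC2 in 16 of 22 and in 30 of 62. The mean of ZFP57 was 1.59 ± 2.43 CPM in rows F and G and 0.455 ± 2.41 CPM in the other rows. No ZFP57 value in rows F and G came from more than 2 reads, so the levels lie under the floor of 3 reads. Markers of other lineages differed between the same rows. The summed level of 4 neural genes ran over 159, 361 and 1329 CPM in rows F and G and over 8.04, 130.4 and 683 CPM in the other rows. PAX6 carried that sum, with a mean of 322 CPM in rows F and G and 85.6 CPM in the other rows, and SOX1 had 7.60 and 2.91 CPM, while NES had 56.4 and 55.6 CPM and TUBB3 18.7 and 20.7 CPM. PAX6 stood at 148 CPM in the libraries used and at 1044 CPM in the pool of libraries with under 1% MT- reads. Median summed levels in rows F and G and in the other rows were 32.3 and 9.45 CPM for 4 trophoblast genes, 17.1 and 6.39 CPM for 4 endoderm genes, 28.7 and 10.7 CPM for 5 fibroblast genes, and 19.2 and 24.1 CPM for 4 streak and mesoderm genes. Many of these markers were, like PAX6, higher in the pool than in the libraries used. GATA3 had 153 CPM in the pool and 20.3 in the libraries used, FOXA2 30.7 and 9.13, and COL1A1 37.6 and 5.75. SOX1, SOX17, GATA4, AFP, CGA, KRT7, COL3A1, DCN and MESP1 were also higher in the pool. NES, TUBB3, CGB5, COL1A2, LUM, TBXT, MIXL1 and EOMES were lower in it. The part of these markers in the differences between rows was not tested.

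The members varied about as much as genes of their level. The excess of log2 CV2 over the trend on mean level was at least 1 in 0 of 8 members, against 13.5% of 8995 genes, a difference of about 1 gene. CBX1 was the most even for its level, with an excess of -1.16, followed by CBX5 at -0.46 and MPHOSPH8 at -0.39. ZNF445 was the most uneven at 0.76, then ATF7IP at 0.41 and CBX3 at 0.27. Well E11 decided the sign for ATF7IP, whose excess was -0.17 without it. TRIM28 and MORC2 lay on the trend, at -0.02 and -0.08, and SETDB1 and ZFP57 were too low to be placed.

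The members showed little shared variation from cell to cell. Over their 45 pairs Spearman's rho of log2(CPM + 1) had a median of 0.11 across 84 cells that share 1 plate and differ in depth and quality, against 0.094 for pairs among 8169 genes of wide detection. The highest were TRIM28 with CBX5 at 0.38 and ATF7IP with CBX5 at 0.34, and the lowest was CBX1 with ZFP57 at -0.27. With gene reads and genes detected taken out, the median was 0.01. Weak values such as these in sparse counts are no finding. CBX3 and its neighbour HNRNPA2B1 had a rho of 0.26, CBX5 and HNRNPA1 0.15, and MORC2 and TUG1 -0.12.

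CBX5 had the highest rho with the G1/S score and ATF7IP with the G2/M score. For CBX5 and the score of 14 G1/S genes rho was 0.63, against a median of 0.24 over genes, and 0.46 with depth and genes detected taken out. With 14 G2/M genes it was 0.50, against a median of 0.22, and 0.28. ATF7IP had 0.55 and 0.40 with the G2/M genes. With the ratio of MT-CO2 to MT-CO1 the rho was -0.59 for CBX5 and -0.50 for ATF7IP, against a median of -0.26 over genes. Without the 19 libraries with more MT-CO2 than MT-CO1, rho was 0.42 for CBX5 with G1/S and 0.38 for ATF7IP with G2/M. The part of library quality was not tested.

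**Figure D5:**
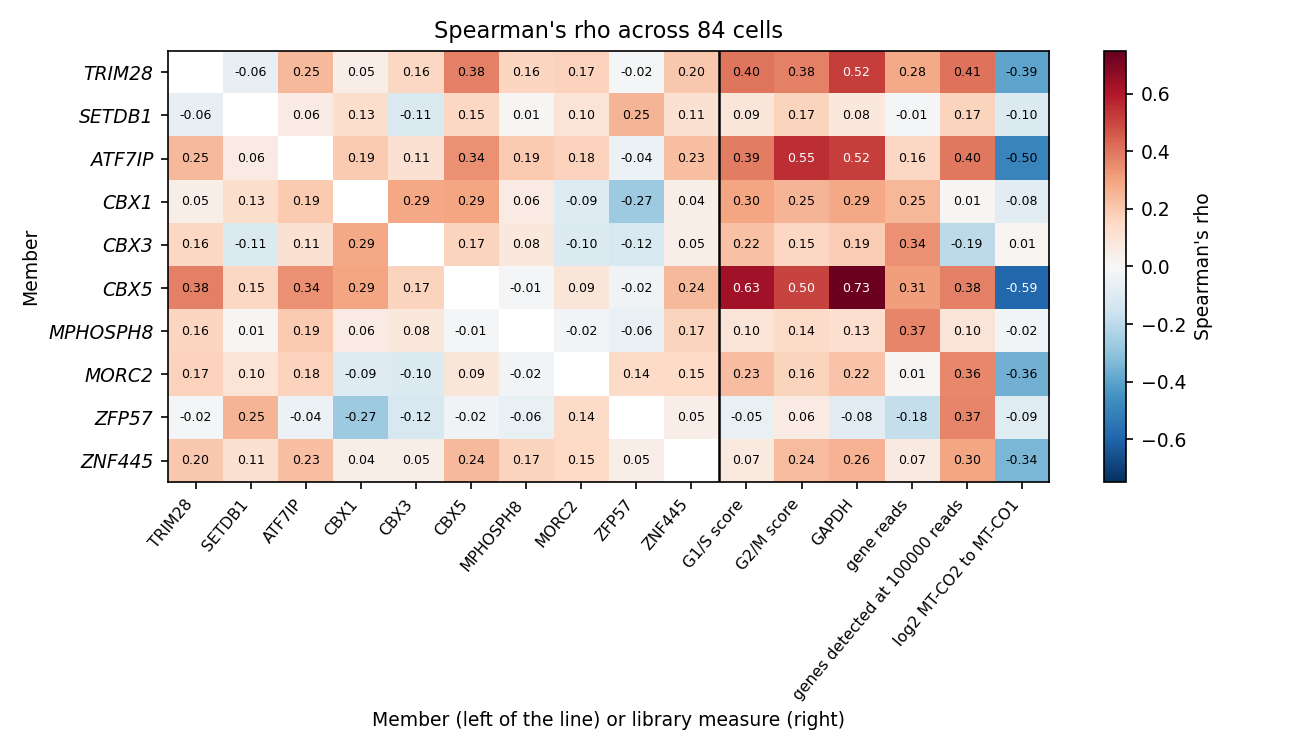
Spearman's rho across 84 cells between members (left of the line) and between members and library measures (right of it), as colour from low to high. Pairs of members stay between -0.27 and 0.38, and the row of CBX5 shows its higher values with the G1/S score (0.63) and G2/M score (0.50).

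The genes most like each member across the 84 cells were of several kinds. CBX5 had the closest, GAPDH at a rho of 0.73 (0.59 with depth and genes detected taken out), then TUBA1B at 0.68 and ABLIM1 at 0.65. TRIM28 was most like PPP2R1A at 0.61, TUBA1C at 0.60 and the pluripotency factor POU5F1 at 0.57. ATF7IP was most like PGM2L1 at 0.60, PRPSAP2 at 0.59 and BUB1, a mitotic checkpoint kinase in the G2/M list, at 0.58. GAPDH is a glycolytic enzyme, and TUBA1B and TUBA1C are tubulins. CBX1 reached 0.58 with SNX6, CBX3 0.56 with TIMM13, MORC2 0.50 with CDC42BPB, MPHOSPH8 0.48 with VTA1 and ZNF445 0.45 with MTOR. For comparison, the median over the 8169 genes lay between 0.04 (CBX3) and 0.23 (CBX5). For TRIM28 and POU5F1, rho was 0.26 within rows F and G and 0.66 within the other rows, and it was 0.58 without the libraries with more MT-CO2 than MT-CO1.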

How the data were processed

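RNA of 96 wells was measured, 1 cell per well. For wells of plate columns 1 and 12 the labels disagree on the column, and the names used here follow the sample titles. Each table the authors deposited holds raw read counts per gene in 3 columns, of which the first ignores strand and the others count 1 strand each. The 4 summary lines above them took 88.8% of all reads and stayed out. Per the submitters' processing notes the tools were FastQC and STAR 2.7.3a, and the builds named are hg38 and GRCh38.p2. Which annotation was used, and whether reads were trimmed or duplicates removed, is not given in the sources used here. No molecular identifiers were recorded.

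The members and lists were chosen with earlier results of these data known. Counts without regard to strand were scaled to CPM over gene reads. Cells are not replicates, and all wells carry the same labels, so no test was made and SDs are over cells. Shares have exact Clopper-Pearson 95% intervals. Excess variability is log2 CV2 over a loess trend (span 0.5), for genes averaging 10 CPM or more and read in 10% or more of libraries, tested on simulated data. Lengths and positions are from GENCODE 29, not known to be the authors' annotation. Promoters are from RefSeq. The genes named are the members, the 3 genes of highest Spearman rho to each member read in 50% or more of libraries (among genes averaging 10 CPM or more with the same detection) and the 3 highest of each list, of which 1 is not reported here. Neighbours, overlapping genes, the other methyltransferases, TASOR and TASOR2 were named after their values were seen, as were single markers. The alternatives changed thresholds, strand column, thinning (seed 1), scaling (TMM of edgeR 4.0.16, pooling by scran 1.30.0), rows and the highest library. Those on library quality and transcript length, and the strand column for the comparisons of rows and of MT- share, were chosen after seeing the data. Python 3.11.15, numpy 2.4.6, scipy 1.17.1, statsmodels 0.14.6 and R 4.3.3 were used.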

Additional observations from a re-analysis of the deposited data

Results flagged for a closer look

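The strand columns, which the levels do not use, held reads of 2 members that the count without regard to strand lacked. MORC2 had 3100 stranded reads in the 84 libraries used, with 764 unstranded, and SETDB1 had 1347 with 540. For SETDB1, well E4 gave 547 of them. The 9 libraries with under 1% MT- reads held 280 stranded reads of MORC2 and 8 of SETDB1.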

How the results depend on the processing

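No paired analysis was possible because all libraries form 1 group. Thinning to 100000 gene reads lowered the share of libraries with a read to 69.05% for TRIM28, 22.6% for SETDB1, 77.4% for ATF7IP, 7.14% for ZFP57, 39.3% for ZNF445, 54.8% for MPHOSPH8 and 29.8% for MORC2, fewer reads being drawn. CBX3 reached 100% under stricter limits (200000 gene reads, 4000 genes), with the stranded sum, without rows F and G and without libraries with more MT-CO2 than MT-CO1. ATF7IP reached 96.9% in the last of these, and ZFP57 was at 6.45% without rows F and G. With the stranded sum MORC2 averaged 46.1 CPM and had a read in 100% of libraries. Its log2 ratio of the libraries used over those under 1% MT- reads then turned to -2.47, against 0.78 without regard to strand, and the cause was not tested. The number of members 2-fold apart in rows F and G was 1, and 3 with TMM factors, 0 with medians (of 7, MORC2 having a median of 0 in the other rows) and 0 with the stranded sum. The other 172 values and counts compared stayed within their spread, interval or 1.5 times. For means the spread is the SD over cells, which is wide, so this is a weak check. The mean of SETDB1 went from 6.24 to 17.7 CPM with the stranded sum and still counted as within it. The median library's floor of 3.91 CPM limits SETDB1, ZFP57 and MORC2, whose medians lie below it, and ZNF445 likewise.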
